A study of Homo sapiens with 402 samples.

Results

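Phenanthrene is a polycyclic aromatic hydrocarbon, a flat molecule of fused benzene rings formed when organic matter burns incompletely. It was given at 0.025, 0.25, 2.5 and 25 µM, with 4 libraries at each dose, to MCF10A cells, a non-tumorigenic human breast epithelial line with the genotype label WT. These 16 libraries were chosen by their treatment label from the 402 analysed in a series of 21 chemicals. They were compared with the 12 solvent controls (DMSO) of the same plate, 3240-AT, and the exposure lasted 48 h in both. Cells of a single passage were grown in multiwell plates and complementary DNA was made directly from the lysate. The labels call the 4 libraries of a dose biological replicates and say nothing of how the controls were replicated. The same plate also held PFDA, PFNA and PFOS in DMSO, PFOA in water and 4 water controls, 96 libraries in all.

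Polycyclic aromatic hydrocarbons are best known in epithelial cells for their action through the aryl hydrocarbon receptor (AhR). The receptor waits in the cytoplasm with HSP90 and the co-chaperone p23, the product of PTGES3, and on binding a ligand moves to the nucleus, pairs with ARNT and binds DNA at a short core motif. Its best known targets encode the oxidases CYP1A1 and CYP1B1, which turn larger hydrocarbons into reactive diols, and the feedback repressors AHRR and TIPARP. Phenanthrene is regarded as a weak ligand of the receptor compared with larger members of the family.

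Library totals ran from 9.93 M to 15.2 M counts in the phenanthrene libraries and from 4.65 M to 15.1 M in the controls. Libraries fell into a low-numbered set (dosed replicates 1 and 2, controls 33 to 38) and a high-numbered set (dosed replicates 3 and 4, controls 41 to 46) that differed in expression, and the labels do not say what the numbers stand for. The identity of the cells was checked against marker genes. KRT5, a keratin of basal epithelium, had 542 to 1456 CPM (counts scaled to a common library size) and LAMB3, a laminin chain, 560 to 983 CPM. KRT14 and TP63, which also define basal cells, were low at 2.17 to 17.8 and 0.27 to 6.79 CPM, and the estrogen receptor gene ESR1 did not pass 1.19 CPM. Of the luminal keratins KRT7 had 3915 to 5204 CPM, KRT8 286 to 442 CPM and KRT18 315 to 585 CPM. The summed luminal markers, at 4563 to 6128 CPM, exceeded the basal ones at 2488 to 3780 CPM, but most of that sum was KRT7. Other luminal markers were low: GATA3 had 16.4 to 31.8, MUC1 7.16 to 16.4, EPCAM 2.92 to 14.4 and FOXA1 3.83 to 12.6 CPM. KRT19 did not pass 0.46 CPM and PGR had 0. Of the immune markers CD14 had 13.2 to 34.7 CPM. The fibroblast markers summed to 31.2 to 70.3 CPM, of which DCN gave 25.6 to 62.0 CPM, and the endothelial markers to at most 4.86 CPM.

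No dose of phenanthrene changed a gene against the controls at an adjusted p under 0.05, so 0% of the 19468 genes tested were called at each dose (edgeR quasi-likelihood test, Benjamini-Hochberg adjustment). The smallest adjusted p was 0.143 at 0.025 µM, 0.236 at 0.25 µM, 0.718 at 2.5 µM and 0.204 at 25 µM. Genes with an unadjusted p under 0.05 numbered 1924 at 0.025 µM (9.88%), 1628 at 0.25 µM (8.36%), 821 at 2.5 µM (4.22%) and 1004 at 25 µM (5.16%). By this count the lower doses stood further from the controls than the higher ones. In bulk libraries fewer cells of a kind and less RNA per cell cannot be told apart. The mean of the 4 doses against the controls also gave 0 called genes, with 1604 (8.24%) at an unadjusted p under 0.05. DESeq2 called 11, 0, 0 and 1 genes from the lowest dose to the highest, and the test without a filter on low counts 138, 114, 1 and 3.

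The genes of smallest p at each dose are given here although all missed the threshold. At 0.025 µM they were GSK3A, a kinase of glycogen and Wnt signalling, AVEN, an apoptosis inhibitor, and CHMP7, a membrane scission factor of the ESCRT-III family. GSK3A had 40.2, 29.5, 52.2 and 46.2 CPM in the 4 libraries at 0.025 µM against 50.2 (lowest), 72.7 (median) and 87.6 (highest) in the controls, so 3 of the 4 lay below every control (log2 difference -0.73, adjusted p = 0.143). At 0.25 µM they were AKR1C1, an aldo-keto reductase that can oxidise hydrocarbon diols, ANGPTL4, a secreted lipase inhibitor, and GRK6, a receptor kinase. AKR1C1 had 30.6, 31.5, 45.3 and 37.2 CPM at 0.25 µM, all below the lowest control of 45.4 CPM (median 60.2, highest 86.8; log2 difference -0.77, adjusted p = 0.236). Close relatives such as AKR1C2 could share its reads. ANGPTL4 had 1030, 1020, 828 and 808 CPM at 0.25 µM against 614, 706 and 855 CPM (lowest, median, highest) in the controls, and the pair above all controls was the low-numbered one.

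At 2.5 µM the genes of smallest p were GNAS, which encodes a stimulatory G protein subunit, the HSPB1 pseudogene HSPB1P2 and AC074212.1. GNAS had 479, 575, 527 and 543 CPM, and 3 of these 4 lay above the highest control at 509 CPM (log2 difference 0.56, adjusted p = 0.718). At 25 µM they were CUL4B, described below, AC092718.6 and RPS4XP3, a pseudogene of a ribosomal protein whose reads can come from the parent gene. RPS4XP3 had 14.2, 13.6, 11.7 and 14.3 CPM at 25 µM, each above the highest control at 11.3 CPM (log2 difference 0.75, adjusted p = 0.784).

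The aryl hydrocarbon receptor genes were not called at any dose or in the trend over dose by the test of all libraries. Of the 14 listed targets, 12 were tested, while CYP1A2 was not analysed here and UGT1A6 did not pass the filter on low counts. CYP1A1 had 1.15 (lowest), 3.76 (median) and 7.89 (highest) CPM in the controls. At 25 µM its 4 libraries had 3.50, 1.91, 5.57 and 2.17 CPM, inside the range of the controls, from 22 to 68 counts each (log2 difference -0.45 ± 0.39 SE, adjusted p = 0.974). At 0.025 µM they had 7.51, 2.48, 2.81 and 2.88 CPM and at 2.5 µM 2.30, 1.97, 1.84 and 4.67 CPM. CYP1A1 thus rested on few reads, and 1 library stood well above the other 3 at 0.025 and at 2.5 µM.

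CYP1B1, which is expressed without added ligand in these cells, was measured with more precision. It had 155, 217 and 253 CPM (lowest, median, highest) in the controls and 192, 202, 196 and 221 CPM at 25 µM, which overlapped (log2 difference -0.09 ± 0.10 SE, adjusted p = 0.984). At 0.25 µM CYP1B1 had 273 and 277 CPM in the low-numbered pair and 203 and 192 CPM in the high-numbered pair, a gap between the pairs larger than that between any 2 dose means. Its trend was -0.08 log2 per 10-fold dose (adjusted p = 0.378), the smallest p of the target list. Fitted in the low-numbered set alone CYP1B1 was called as falling, with a slope of -0.16, beside -0.0061 in the high-numbered set, where it was not called. TIPARP had 74.0, 76.1, 106 and 92.6 CPM at 25 µM against 70.2, 90.4 and 98.6 CPM (lowest, median, highest) in the controls. NQO1, a quinone reductase shared with the oxidative stress response, differed by -0.05 ± 0.06 SE on the log2 scale at 25 µM. AHRR stood lowest at 2.5 µM, where the library numbered 2 had 0.090 CPM and the others 1.31, 2.21 and 1.09 CPM against 0.85, 3.24 and 6.12 CPM (lowest, median, highest) in the controls (log2 difference -1.60, adjusted p = 1).

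**Figure D1:**
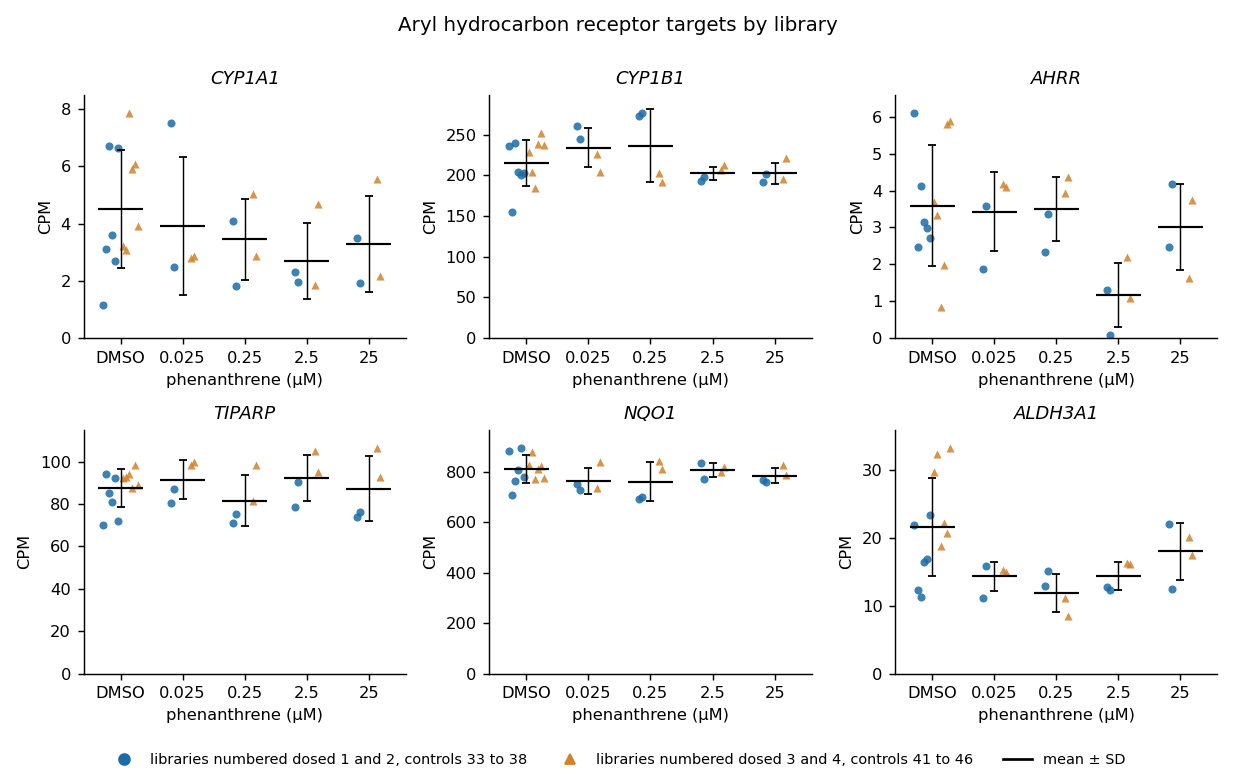
CPM (linear axes from 0) of 6 aryl hydrocarbon receptor targets in the 12 DMSO controls and the 4 libraries of each phenanthrene dose in µM; circles are low-numbered and triangles high-numbered libraries, bars give the mean ± SD. The CYP1A1 and CYP1B1 points at 25 µM lie inside the span of the controls.

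As a group, 10 of the 12 tested targets were lower and 2 higher than the controls at 25 µM, with a median log2 difference of -0.19 beside -0.0070 for all genes tested, and 1 (EREG, an EGFR ligand) had an unadjusted p under 0.05, as lower, beside 2.58% of all genes. At 2.5 µM 11 of 12 were lower (median -0.31), at 0.25 µM 11 of 12 (median -0.096) and at 0.025 µM 7 of 12 (median -0.042). Those lower at an unadjusted p under 0.05 numbered 3 at 2.5 µM, 2 at 0.25 µM and 1 at 0.025 µM, where 2.34%, 4.63% and 5.18% of all genes were, and 0 were higher at any dose. None of the 7 genes of the receptor complex was called by the test of all libraries. In the low-numbered set alone the chaperone gene HSP90AA1 was called as rising over dose, with a slope of 0.24, beside -0.047 in the high-numbered set. AHR itself had 1.59 to 5.98 CPM at 25 µM and 2.43 to 10.97 CPM in the controls, while HSP90AB1, one of its chaperones, had 2659.8 to 2971 and 2684 to 2884 CPM in the same order.

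The core motif of the receptor, GCGTG or its reverse complement CACGC, was counted in the 250 bases before the start of each RefSeq gene (GRCh38.p14). It was present in 32.2% of all 35116 promoters, and 36.2% of all genes in the table held it in at least 1 promoter. The CYP1A1 promoter is shown because it belongs to the standard target of the receptor, which was not called here. It lies on chromosome 15 at chr15:74725529-74725778 on the minus strand and held 1 copy, in capitals.
CYP1A1: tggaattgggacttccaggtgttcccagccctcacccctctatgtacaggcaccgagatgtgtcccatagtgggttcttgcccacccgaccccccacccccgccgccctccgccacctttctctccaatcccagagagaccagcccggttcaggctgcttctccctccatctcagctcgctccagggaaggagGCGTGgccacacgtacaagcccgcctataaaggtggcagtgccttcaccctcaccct
Of the 12 listed targets matched in the table, 8 (66.7%) held the motif in at least 1 promoter. Counted by promoter, 11 of their 20 (55%) held it. The median GC content of their promoters was 63%, beside 58% over all genes of the table, and the motif is itself rich in GC. A match describes these letters alone, and binding of the receptor was not measured.

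Other genes that handle hydrocarbons were also not called against the controls or in the trend by the test of all libraries. The list of oxidation and diol handling had 15 of 19 members tested, with 9 higher and 6 lower at 25 µM (median log2 difference 0.045). Of the conjugation and export genes, 19 of 30 were tested, and 14 had a positive trend, 3 of them with an unadjusted p under 0.05, beside 6.21% of all genes. SULT1E1, an estrogen sulfotransferase, was closest to the threshold. It had 1.45, 2.11, 5.46 and 3.08 CPM at 0.025 µM and 9.79, 6.77, 13.03 and 5.76 CPM at 25 µM, which did not overlap, and its trend was 0.54 log2 per 10-fold dose (adjusted p = 0.0544). The controls spanned both ends, from 0.81 to 12.4 CPM. With the set of library numbers as a term, SULT1E1 (slope 0.56, adjusted p = 0.0061) and AKR1C1 (0.21, adjusted p = 0.0351) were called as rising. Fitted in single sets, SULT1E1 was called in the low-numbered and AKR1C1 in the high-numbered one. The 17 NRF2 targets, which answer to electrophiles, were all tested: 3 had a positive trend at an unadjusted p under 0.05 and 0 a negative one, beside 6.21% and 5.13% of all genes. Against the controls 11 of the 17 were lower at 0.025, 2.5 and 25 µM and 14 at 0.25 µM. Of the 24 p53 targets, 20 were higher at 25 µM than in the controls, with a median log2 difference of 0.16 beside -0.0070 for all genes tested, and 3 of these, SESN2, FDXR and PLK3, had an unadjusted p under 0.05 where 2.58% of all genes were higher at that level. At 0.025 µM 15 of the 24 were higher, and at 0.25 and 2.5 µM 9 were, with a median of -0.034 at both of these doses.

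A trend over dose was seen where single doses gave none. The 4 doses, which are 10-fold apart, were fitted with a straight line on the log10 dose, without the controls, and 43 genes (0.221% of those tested) had a slope at an adjusted p under 0.05: 16 rose (0.0822% of all genes) and 27 fell (0.139%) from 0.025 to 25 µM. At an unadjusted p under 0.05 there were 2208 (11.3%). The ratio of 25 to 0.025 µM had a median of 2.06 among the 16 that rose (1.33 to 17.2) and 0.658 among the 27 that fell (0.441 to 0.749). A direct test of 25 against 0.025 µM called 15 genes, 7 higher (0.036%) and 8 lower (0.0411%), 0.077% in all, all 15 among the 43. The means of the 4 doses stood in order in 32 of the 43, and the 4 libraries at 25 µM did not overlap the 4 at 0.025 µM in 39. Over all genes those shares were 12.3% and 4.75%. The slope selected the 43 genes, so these counts describe them and test nothing. Of the 43, 7 had an average log2 CPM under 4, below which 21 of the 27 false trend calls on simulated data fell. Changes were simulated only in genes of at least 4, so every simulated call below that was false. The 7 were AC099850.2, HOXC13-AS, MAP4K2, ID2, SAMD11, CDKN1C and, outside the rule, LYSMD3, which alone of these fell. With the GC slope of each library, described below, as a covariate 0 genes were called.

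Among the genes that fell, the smallest p was that of CUL4B, the scaffold of a ubiquitin ligase that acts on chromatin and cell cycle proteins. It had 123, 116, 116 and 112 CPM at 0.025 µM and 93.7, 119, 83.4 and 101 CPM at 0.25 µM. It then had 109, 78.1, 54.1 and 92.7 CPM at 2.5 µM and 52.1, 80.8, 67.8 and 57.7 CPM at 25 µM. The libraries at both ends were far apart, while the controls with 60.4, 98.2 and 116 CPM (lowest, median, highest) covered most of the range. The slope was -0.28 ± 0.046 SE log2 per 10-fold dose (adjusted p = 0.00043), and 2 of the 4 libraries at 25 µM lay below every control.

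TFRC, the transferrin receptor through which cells take up iron, had 330, 284, 267 and 289 CPM at 0.025 µM and 104, 214, 208 and 160.1 CPM at 25 µM. The groups did not overlap. The controls had 88.5, 249 and 268 CPM (lowest, median, highest), so 3 of the 4 libraries at 0.025 µM lay above all of them and none at 25 µM lay below. Its slope was -0.27 log2 per 10-fold dose (adjusted p = 0.0102). RB1, the retinoblastoma tumour suppressor, had 59.6, 54.96, 60.1 and 61.8 CPM at 0.025 µM and 21.3, 37.9, 33.7 and 32.7 CPM at 25 µM, with a slope of -0.31 (adjusted p = 0.0223). The controls of RB1, from 26.99 to 68.2 CPM, overlapped both ends.

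The other genes that fell have varied roles. Those of the secretory pathway were SPCS3, a signal peptidase subunit (-0.24, adjusted p = 0.00548), GLCE, an epimerase of heparan sulfate synthesis (-0.36, adjusted p = 0.00884), and ZDHHC6, a palmitoyltransferase (-0.19). Those of cell division and chromatin were ANLN, which organises the contractile ring (-0.22), NEK7, a mitotic kinase (-0.22), ATAD2, a chromatin-bound ATPase (-0.18), and MCM10, a replication initiation factor outside the rule for named genes. Those of signalling were TWSG1, which binds BMP ligands (-0.18), the adaptor CRKL (-0.21) and, outside the rule, the RAS gene NRAS. FAR1, which makes fatty alcohols for ether lipids, LRPPRC, which stabilises mitochondrial mRNA, the ubiquitin ligase PJA2 and the poly(A) polymerase PAPOLA made up the rest of the named 15.

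The gene of smallest p among those that rose was MT-CO1, a cytochrome c oxidase subunit encoded in the mitochondrial genome. It had 7549.9, 7509.5, 9279 and 8745 CPM at 0.025 µM and 11382, 11472, 10404 and 10685 CPM at 25 µM, without overlap, and 8568, 9886 and 11964 CPM (lowest, median, highest) in the controls. Its slope was 0.13 ± 0.026 SE log2 per 10-fold dose (adjusted p = 0.00548). ID2, an inhibitor of basic helix-loop-helix transcription factors, had 4.35, 6.79, 12.9 and 9.92 CPM at 0.025 µM, 9.18, 7.41, 11.5 and 17.5 CPM at 0.25 µM and 11.3, 16.7, 12.2 and 14.9 CPM at 2.5 µM. All 4 libraries at 25 µM, with 21.5, 18.7, 24.0 and 22.1 CPM, lay above the highest of the 12 controls at 18.6 CPM. The slope of ID2 was 0.42 ± 0.088 SE (adjusted p = 0.0111), and its difference from the controls at 25 µM was 0.70 on the log2 scale with an adjusted p of 0.914.

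CDKN1C, which encodes the cell cycle inhibitor p57, had 3.41, 4.04, 15.2 and 4.89 CPM at 0.025 µM and 21.3, 14.3, 19.6 and 25.8 CPM at 25 µM. Its groups overlapped through the third library at 0.025 µM, and the slope was 0.51 (adjusted p = 0.0225). AVEN had 13.1, 8.07, 13.95 and 12.2 CPM at 0.025 µM and 20.04 to 33.95 CPM at 0.25 µM, so that its slope of 0.39 (adjusted p = 0.00548) came with a single step between the lowest dose and the next. GSK3A had the same shape. The other named genes that rose included the chromatin reader MLLT1, the growth factor VEGFB, the engulfment factor ELMO3, the kinase MAP4K2 and the milk fat globule protein MFGE8. The rest were the protease FURIN, the transcription factor STAT6, SAMD11, HOXC13-AS and AC099850.2. GRINA, outside the rule, rose too (0.15, adjusted p = 0.0488). HOXC13-AS is antisense to HOXC13, and the handling of strand is not given in the sources used here, so their reads cannot be told apart. AC099850.2 gave the highest ratio of 17.2 from 0 to 4 counts per library at 0.025 µM and 5 to 51 at 25 µM.

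**Figure D2:**
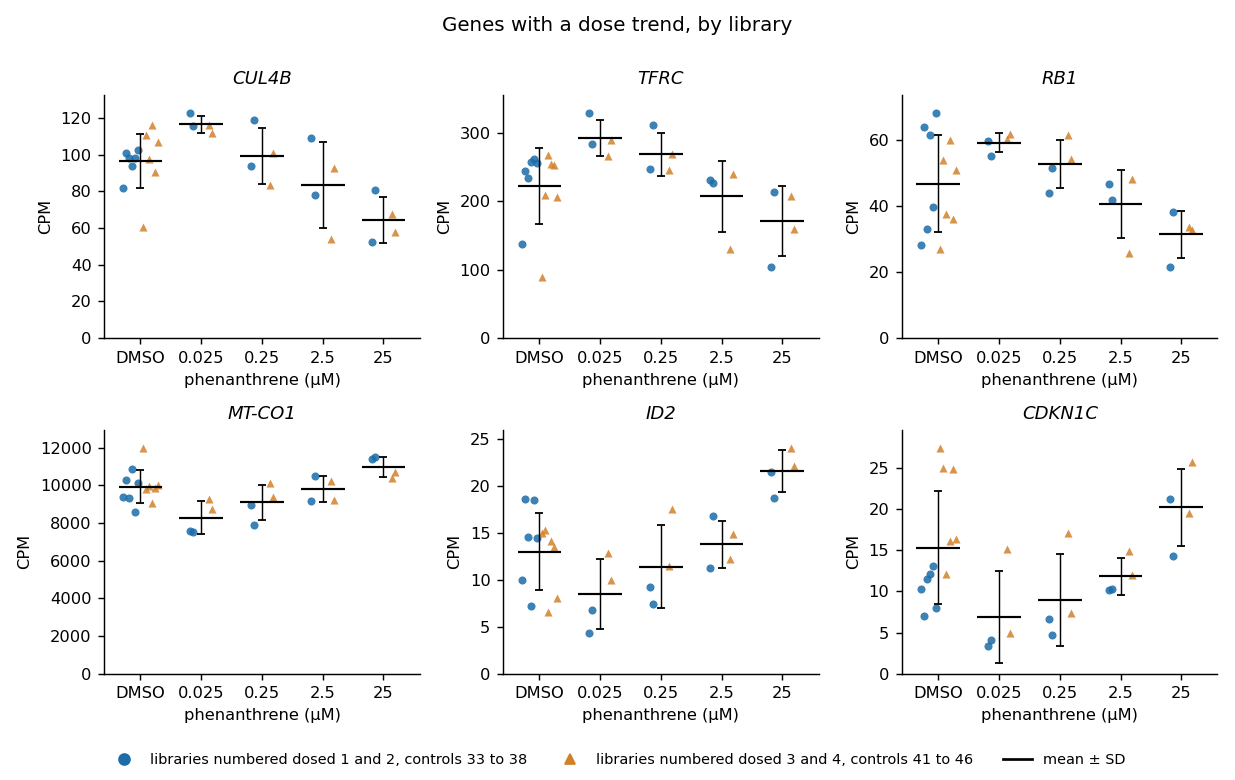
CPM (linear axes from 0) of CUL4B, TFRC, RB1, MT-CO1, ID2 and CDKN1C in the 12 DMSO controls and the 4 libraries of each phenanthrene dose in µM; circles are low-numbered and triangles high-numbered libraries, bars give the mean ± SD. From 0.025 to 25 µM the upper row falls and the lower row rises, and the control means lie between those of the 2 doses.

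The promoters of 1 gene of each direction are shown beside that of CYP1A1. ID2 starts on chromosome 2, with its promoter at chr2:8681806-8682055 on the plus strand and 2 copies of the core motif, 1 on each strand, in capitals. TFRC has its promoter at chr3:196082091-196082340 on the minus strand, with no copy.
ID2: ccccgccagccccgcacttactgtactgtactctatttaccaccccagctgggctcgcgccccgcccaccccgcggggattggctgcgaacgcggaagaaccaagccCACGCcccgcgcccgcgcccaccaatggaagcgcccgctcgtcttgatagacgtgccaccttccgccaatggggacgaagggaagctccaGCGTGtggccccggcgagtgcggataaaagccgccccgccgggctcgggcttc
TFRC: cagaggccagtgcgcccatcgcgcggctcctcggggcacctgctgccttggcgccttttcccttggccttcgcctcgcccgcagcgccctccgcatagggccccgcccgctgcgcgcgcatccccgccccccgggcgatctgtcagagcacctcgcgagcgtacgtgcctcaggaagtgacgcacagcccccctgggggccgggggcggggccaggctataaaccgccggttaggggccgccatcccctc
Of the genes that rose, 11 were matched in the promoter table and 7 of these (63.6%) held the motif, and of those that fell, 23 were matched and 12 (52.2%) held it, beside 36.2% of all genes in the table. The median GC content of the promoters was 69.2% in the first set, 68.8% in the second and 58% over all genes of the table, and the motif is itself rich in GC.

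The mean of the controls lay between those of the lowest and the highest dose for all 43 trend genes. The slope that selected these genes sets their ends apart, so a control mean between the ends is likely for them and tests nothing. At 25 µM the 16 genes that rose were above the controls by a median of 0.32 on the log2 scale and the 27 that fell below them by a median of -0.29. At 0.025 µM the same genes stood on the other side of the controls, with a median of -0.62 for those that rose and 0.34 for those that fell. The lowest dose was the further from the controls in 25 genes and the highest dose in 18. Both comparisons share the 12 controls. Against those controls 34 of the 43 had an unadjusted p under 0.05 at 0.025 µM and 32 at 25 µM, and none was called. Over all genes those shares were 9.88% and 5.16%, and the selection by slope bears on these counts too. When the controls were put in the line as its lowest step, below 0.025 µM, 1 gene was called, and it was one of the 43.

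**Figure D3:**
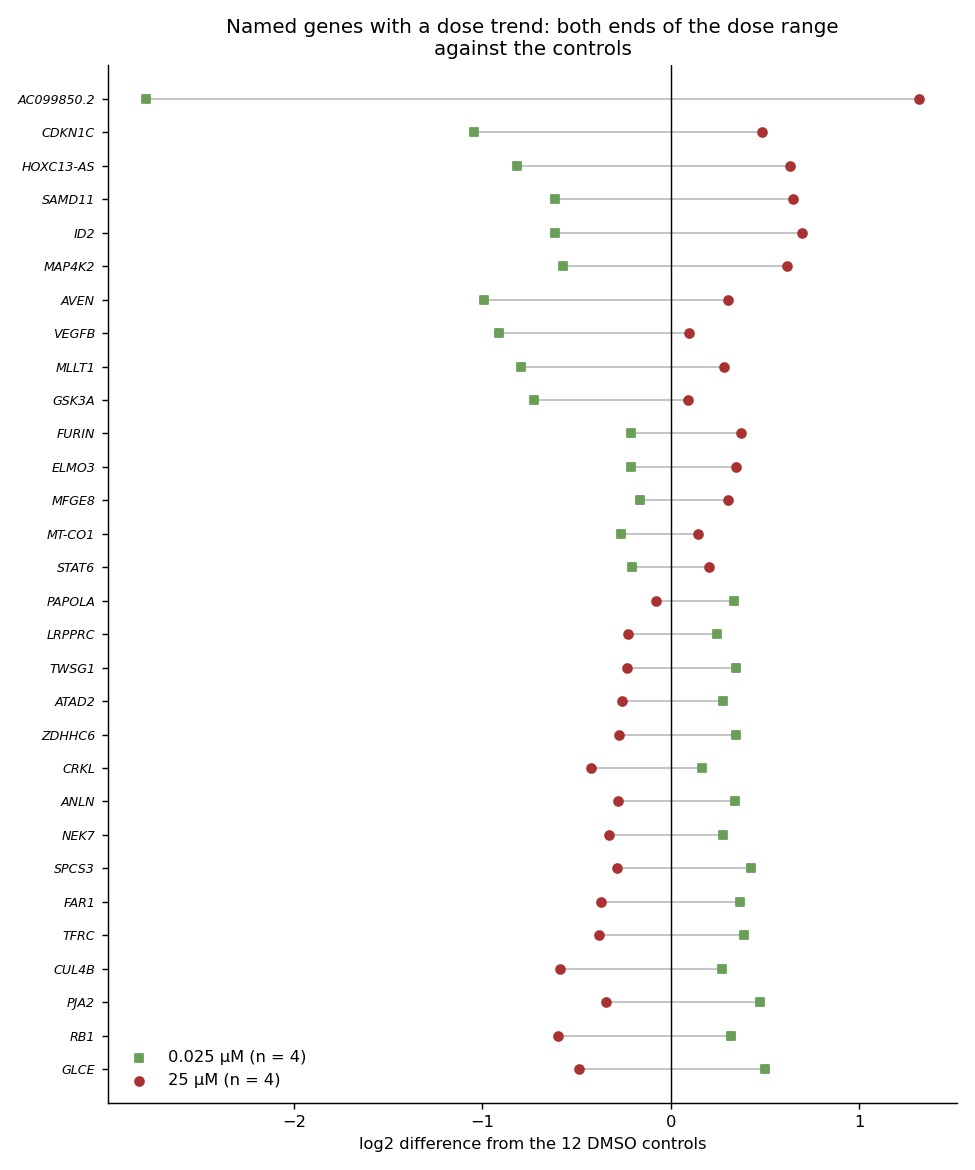
Log2 difference from the 12 DMSO controls (horizontal axis) of each of the 30 trend genes named by the rule (rows) at 0.025 µM (squares) and at 25 µM (circles), 4 libraries each. In all 30 rows the squares and circles lie on opposite sides of the controls at 0. The genes were selected by their slope, which sets these ends apart.

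The trend was looked at in each set of library numbers. All 43 genes had the same sign in both sets, which is no independent support because both sets entered the selection. The slope of CUL4B was -0.27 log2 per 10-fold dose in the low-numbered set and -0.29 in the high-numbered set, that of TFRC -0.32 and -0.23. Of the genes that rose, these had larger slopes in the low-numbered than in the high-numbered set: 0.63 and 0.29 for ID2, 0.77 and 0.39 for CDKN1C and 0.20 and 0.067 for MT-CO1. Fitted over each set alone, 376 genes were called in the low-numbered and 30 in the high-numbered one, with 33 and 13 of the 43 among them. With the set as a term in the model of all libraries 152 genes were called, 89 of them rising, and all 43 were among them. The single doses also differed between the sets: against the controls 422 genes at 0.025 µM and 286 at 0.25 µM were called in the low-numbered set, 6 and 16 in the high-numbered set. At 2.5 and 25 µM the counts were 0 and 0 in the low-numbered set and 8 and 6 in the high-numbered set.

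The count of trend genes depended on which libraries were fitted. Without the phenanthrene libraries numbered 1 the trend called 1 gene, without those numbered 2 it called 3, without those numbered 4 it called 19 and without those numbered 3 it called 41. The library numbered 3 at 2.5 µM was the lowest of its dose for CUL4B, TFRC and RB1.

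Endoplasmic reticulum chaperones, which fold secreted proteins, had higher values than the controls at the lower doses, though none was called at any dose. All 15 had positive log2 differences at 0.025 µM, with a median of 0.21 beside -0.024 for all genes tested, and 11 had an unadjusted p under 0.05, where 4.7% of all genes were higher at that level. At 0.25 µM 14 of 15 were positive (median 0.22) and 10 had an unadjusted p under 0.05 beside 3.73% of all genes, and at 2.5 and 25 µM 0 did. HSPA5, the main chaperone BiP, had 627 to 795 CPM at 0.025 µM, 611 to 849 CPM at 0.25 µM, 606 to 648 CPM at 25 µM and 558 to 695 CPM in the controls, so the groups overlapped. In the trend 13 of 15 had negative slopes (median -0.076 beside 0.0044 for all genes tested). Of these, 8 had an unadjusted p under 0.05 beside 5.13% of all genes, led by the lectin chaperone CANX (-0.10, adjusted p = 0.117). The list's median slope was -0.12 in the low-numbered set, where PDIA6 was called as falling, and -0.017 in the high-numbered set.

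Cell cycle genes had the same direction. Of the 28 mitotic genes, 23 were higher than the controls at 0.025 µM (median 0.14 beside -0.024 for all genes tested). Of these, 8 had an unadjusted p under 0.05, among them the proliferation marker MKI67 and the kinase AURKA, where 4.7% of all genes were higher at that level. In the trend 24 had negative slopes (median -0.051) and 11 an unadjusted p under 0.05, beside 5.13% of all genes, led by the spindle factor TPX2 (-0.09, adjusted p = 0.163). Of the 32 DNA replication genes 27 had negative slopes, 7 at an unadjusted p under 0.05, beside the same 5.13% of all genes. FEN1, the flap endonuclease of lagging strand synthesis, had 198, 187, 139 and 159.8 CPM at 0.025 µM and 154, 121, 132 and 126 CPM at 25 µM (slope -0.13, adjusted p = 0.0791). It was called as falling with the set of numbers as a term and within the low-numbered set. None of the cell cycle genes of the 2 lists was called by the test of all libraries.

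Among the 13 mitochondrially encoded genes MT-CO1 was called and 11 had positive slopes (median 0.049). MT-ND4L, a subunit of complex I, came next with 0.12 (adjusted p = 0.0791), and was called with the set of numbers as a term (adjusted p = 0.0329). MT-ND1, MT-ND3 and MT-ND4L were called beside MT-CO1 in the low-numbered set, and none of the 13 in the high-numbered one. Over all genes those fits called 376 and 30, so far fewer calls were made in the high-numbered set. MT-CO2 and MT-ND4 had -0.02 and -0.01. The share of counts on mitochondrially encoded genes was 5.29%, 5.55%, 7.85% and 7.46% at 0.025 µM and 7.20%, 12.3%, 8.02% and 7.97% at 25 µM, and 6.11% to 13.6% in the controls. The difference between these doses did not pass the test (two-sided exact permutation test, p = 0.143), which did not keep the sets of numbers apart. Within each set the libraries at 25 µM lay above those at 0.025 µM. In the 2 sets the pattern was not alike: the high-numbered phenanthrene libraries stayed between 7.20% and 8.02% at all doses. The low-numbered ones had 5.71% and 5.26% at 0.25 µM, 6.71% and 10.3% at 2.5 µM and 7.20% and 12.3% at 25 µM. With this share as a covariate, 29 trend genes were called, 20 of them among the 43.

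The trend genes differed in base composition. The GC content of the longest GENCODE v29 transcript had a median of 55.7% in the 16 genes that rose and 39.01% in the 27 that fell, beside 48.0% for all genes tested. Of those that rose, 14 lay above the median of all genes, and of those that fell, 3. The exceptions among those that rose were MT-CO1 and AC099850.2.

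**Figure D4:**
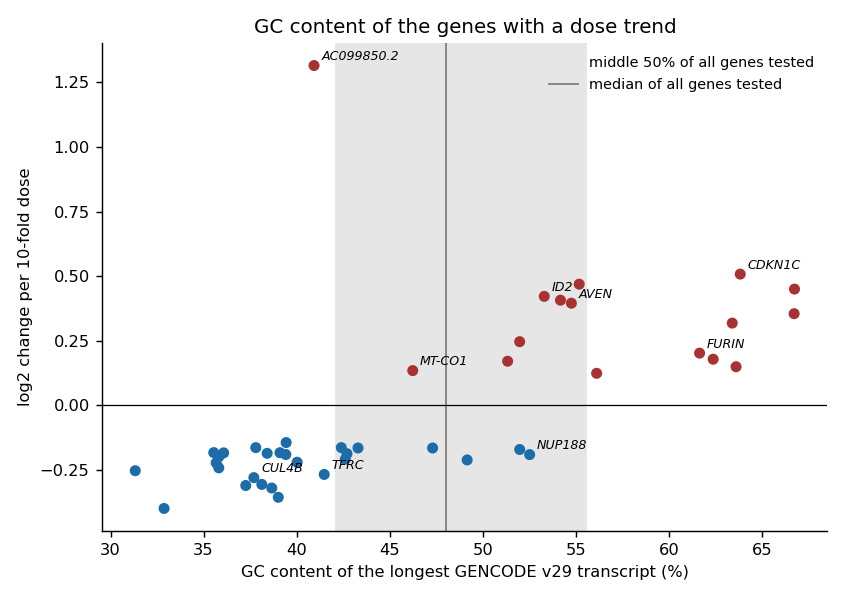
GC content in percent of the longest GENCODE v29 transcript (horizontal axis) against the log2 change per 10-fold dose (vertical axis) of the 43 trend genes; the grey band is the middle 50% of all genes tested and the line their median of 48.0%. Most of the 16 rising genes lie to the right of the line and most of the 27 falling genes to the left.

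The libraries themselves also differed by GC content, and the part of this in the trend was not tested beyond the fit given here. The GC slope of a library, the change in its log2 expression relative to the plate per 10 percentage points of transcript GC, was -0.029, -0.040, -0.021 and -0.016 at 0.025 µM and 0.10, 0.023, 0.042 and 0.070 at 25 µM. The groups did not overlap (two-sided exact permutation test, p = 0.0286, the smallest that 4 against 4 allows, adjusted p = 0.286 over 20 such tests of library measures). The mean was 0.022 at 0.25 µM, 0.047 at 2.5 µM and 0.028 ± 0.033 (SD, n = 12) in the controls, and all 4 libraries at 0.025 µM lay below every control (exact permutation p = 0.00659, adjusted p = 0.132). With the GC slope of each library as a covariate, an alternative added after these values were seen, 0 genes had a trend at an adjusted p under 0.05 and 1605 an unadjusted p under 0.05. All 43 kept their sign in that fit, and 40 had a smaller slope, at a median of 0.789 of the original. CUL4B had -0.19 and MT-CO1 0.13 in it, both at an adjusted p of 0.0945.

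**Figure D5:**
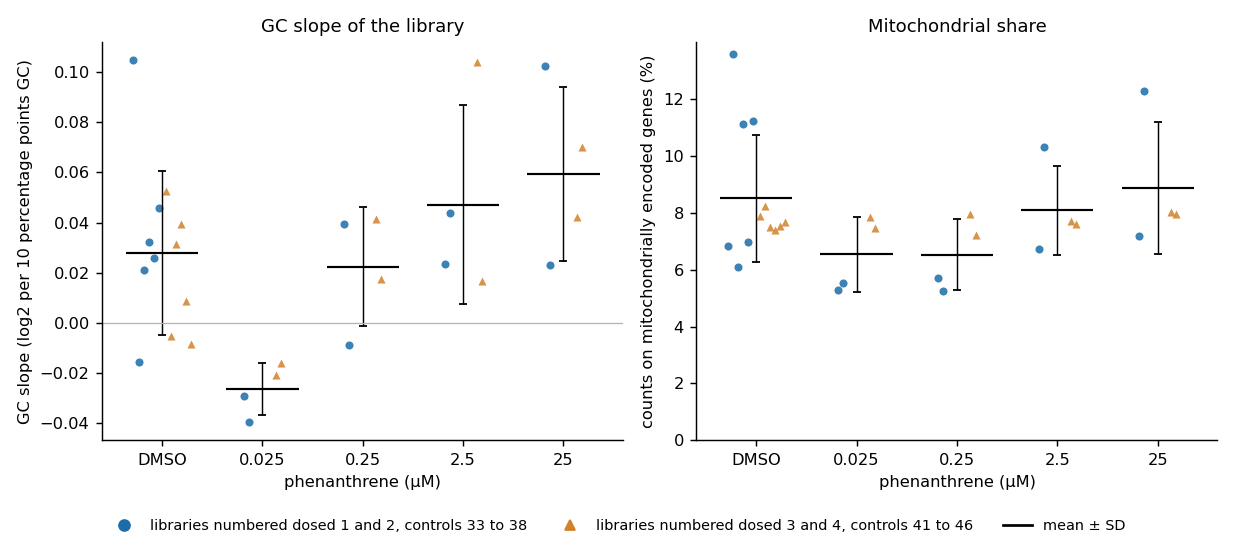
Left, GC slope of each library in log2 per 10 percentage points of GC; right, share of counts on mitochondrially encoded genes in percent, for the 12 DMSO controls and the 4 libraries of each phenanthrene dose in µM. Circles are low-numbered and triangles high-numbered libraries, bars give the mean ± SD, and all 4 GC slopes at 0.025 µM are negative.

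The trend of phenanthrene was set against those of PFDA, PFNA and PFOS, 3 perfluoroalkyl acids given in the same solvent on the same plate at the same doses. The difference between the slope of phenanthrene and their mean slope was called for 219 genes (1.12% of those tested), 173 higher (0.889%) and 46 lower (0.236%). Of the 43 trend genes, 27 were called for this difference, each in the direction of its own trend. The difference contains the slope that selected these genes, so that count is no independent support. Of the 43, 0 had a called trend in PFDA, PFNA, PFOS or PFOA. Over all genes those trends called 0 for PFDA, 3 (0.0154%) for PFNA, 7 (0.036%) for PFOS and 0 for PFOA, so a count of 0 among 43 is near the background. ID2 had slopes of 0.42 for phenanthrene and -0.14, -0.25 and -0.067 for PFDA, PFNA and PFOS (difference 0.57 ± 0.10 SE, adjusted p = 0.00091). CUL4B had -0.28 for phenanthrene and 0.030, 0.068 and 0.0024 for the others (difference -0.31, adjusted p = 0.00091). TFRC and RB1 were not called for the difference (adjusted p = 0.158 and 0.181), with slopes of -0.16 and -0.19 for PFOS.

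Collagen, laminin and integrin genes, which build the matrix and anchor cells to it, were among those called for this difference. Of the 29 tested members 22 had a higher slope with phenanthrene and 6 were called, beside 0.889% of all genes called as higher: the fibronectin gene FN1 (0.23 ± 0.046 SE, adjusted p = 0.0033), the collagen genes COL1A1 and COL4A2, the laminin gene LAMA5 and the integrin genes ITGA3 and ITGB4. Phenanthrene's own slope was not called for any of the 6 by the test of all libraries. That of FN1 was 0.060 beside -0.085, -0.16 and -0.26 for PFDA, PFNA and PFOS. With the set of library numbers as a term, ITGB4 (0.19, adjusted p = 0.00073), LAMA5 (0.22, adjusted p = 0.0154) and ITGA3 (0.12, adjusted p = 0.0201) were called as rising. In that fit the laminin gene LAMA3 was called as falling (-0.18, adjusted p = 0.0392). All of these were called in the low-numbered set alone too, and no member of the list in the high-numbered set. AKR1C1 (0.32) and SULT1E1 (0.75) were called as higher too, and CANX (-0.12) as lower. The 173 genes that were higher had a median transcript GC content of 60.6% and the 46 that were lower 40.5%, and with the GC slope as a covariate 6 genes were called. Without the phenanthrene libraries of 1 number the count was 45, 21, 155 or 194 for the numbers 1 to 4.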

How the data were processed

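RNA from MCF10A wells was sequenced with plexWell, a plate-based method that adds a well barcode by tagmentation. The authors deposited whole-number read counts per gene symbol. FastQC, MultiQC, STAR and featureCounts and the build GRCh38 are named in the submitters' processing notes. The sources used here name no annotation, strand setting or tool version. Reads were counted, not molecules.

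Counts of the plate's 96 libraries were fitted together in edgeR 4.0.16 (R 4.3.3, limma 3.58.1) with 1 mean per group, TMM scaling, filterByExpr (minimum count 10, minimum total 15), the quasi-likelihood test and Benjamini-Hochberg adjustment over 19468 genes, with a threshold of 0.05. The trend is a straight line over the 4 log10 doses. A standard error is the log2 change divided by the square root of F. CPM use TMM-scaled library sizes. The test was tested on simulated data, where it made more false calls than the threshold allows, most of them among genes with an average log2 CPM under 4. Changes were simulated only in genes of at least 4, which 7633 of the 19468 genes tested reached. The simulated means held no difference between number sets or in GC slope. Library measures were compared by two-sided exact permutation tests (scipy 1.17.1). GC content came from the longest GENCODE v29 transcript, matched for 97.4% of genes, and the GC slope used 7593 genes whose average log2 CPM reached 4. Promoters came from RefSeq (GRCh38.p14).

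The rule for named genes took up to 15 rising and 15 falling trend genes of smallest p. For a dose with under 3 calls it took the 3 of smallest p. It also took all tested AhR genes and the member of smallest trend p in each other list. Not every AhR gene or list member that it took is named here. Genes outside this rule were chosen after their values were seen. The members and lists were chosen with earlier results of these data known. Alternatives covered scaling, DESeq2 1.42.0, the filter, the libraries fitted, depth, number sets, single libraries, controls and, added after the data were seen, the GC slope and the mitochondrial share. Some withheld items are not reported here.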

Additional observations from a re-analysis of the deposited data

Results flagged for a closer look

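In 244 groups of 4 libraries, 20 had 1 library far from the other 3, where chance gives about 1 in 20. Among AhR genes, in CPM, these were AHR at 2.5 µM replicate 3 (8.55, high), ALDH3A1 at 0.025 µM replicate 1 (11.2, low), ARNT2 at 0.025 µM replicate 1 (1.28, high), HSP90AB1 at 2.5 µM replicate 3 (2657, low) and CYP1A1 at 0.025 µM replicate 1 (7.51, high) and 2.5 µM replicate 4 (4.67, high). CYP2S1 had 0.083 CPM at 0.25 µM replicate 1, 0.066 CPM at 2.5 µM replicate 1 and 0.246 CPM at 25 µM replicate 3, each the highest of its group. These values lie near 0 and rest on very few reads, and CYP2S1 is among the tested targets counted above. Among trend genes the libraries that stood high were CDKN1C at 0.025 µM replicate 3 (15.2 CPM), FAR1 at 0.25 µM replicate 2 (60.9 CPM) and HOXC13-AS at 25 µM replicate 3 (12.6 CPM). Those that stood low were LRPPRC (104.2 CPM) and TFRC (129.7 CPM) at 2.5 µM replicate 3, NEK7 at 0.25 µM replicate 1 (51.4 CPM), SPCS3 at 0.025 µM replicate 3 (79.2 CPM) and at 25 µM replicate 1 (49.8 CPM), and STAT6 at 0.025 µM replicate 1 (91.6 CPM). HSPB1P2 stood high at 0.25 µM replicate 4 (0.676 CPM). The mitochondrial share stood high at 25 µM replicate 2 (12.3%).

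For 23 of the 30 named trend genes the slope differed from the mean slope of PFDA, PFNA and PFOS (edgeR, adjusted p under 0.05). The differences, in log2 per 10-fold dose, were higher with phenanthrene for MT-CO1 (0.12), AVEN (0.46), ID2 (0.57), MLLT1 (0.45), CDKN1C (0.51), VEGFB (0.41), ELMO3 (0.19) and GSK3A (0.34). They were also higher for SAMD11 (0.70), HOXC13-AS (0.55), MAP4K2 (0.50), MFGE8 (0.22), FURIN (0.32) and AC099850.2 (1.55). They were lower for CUL4B (-0.31), TWSG1 (-0.19), SPCS3 (-0.20), GLCE (-0.33), FAR1 (-0.22), NEK7 (-0.20), ZDHHC6 (-0.25), LRPPRC (-0.20) and PJA2 (-0.29). These genes were chosen for their slope with phenanthrene, so the differences are no independent support for it.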

How the results depend on the processing

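The trend over dose called 43 genes, the 25 against 0.025 µM test 15 and the trend difference from PFDA, PFNA and PFOS 219. Each of the 43 trend genes kept the direction of its slope in the alternatives run for it, and DESeq2 gave an adjusted p for 36 of them. Directions of single genes were not compared for the ends or the trend difference. Without a filter on low counts the trend called 241 genes, the ends 156, the trend difference 535, the mean of the doses 76, and the doses 138, 114, 1 and 3 from the lowest up. DESeq2 called 77, 28 and 359 for trend, ends and trend difference, 11 at 0.025 µM and 1 at 25 µM. With robust empirical Bayes the ends gave 9, and with phenanthrene and DMSO libraries alone 26. The latter fit holds none of the other chemicals, so the trend difference could not be run in it. Thinned to 4608173 counts a library, 2 genes were called at 0.25 µM. With the number set as a term the trend gave 152, the ends 54, the trend difference 538, 0.025 µM 1 and 0.25 µM 2. The low-numbered set alone gave 376, 97 and 852 for trend, ends and trend difference, 166 for the mean of the doses, and 422 and 286 at 0.025 and 0.25 µM. The high-numbered set gave 30, 12 and 151, then 29 for the mean of the doses and 6, 16, 8 and 6 for the doses from the lowest up. The cause was not tested.

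Leaving out the phenanthrene libraries of 1 number gave 1 to 41 trend genes, 0 to 15 for the ends, 21 to 194 for the trend difference, 0 to 2 at 0.025 µM and 0 to 1 at 25 µM. Leaving out 1 control gave 0 to 2 at 0.025 µM, 0 to 1 at 25 µM and 0 to 1 for the mean of the doses. With the water controls added, 0.25 µM gave 5, 25 µM 1 and the mean of the doses 67. With the controls as the lowest of 5 steps the trend gave 1. With the GC slope as a covariate, trend, ends and trend difference gave 0, 0 and 6. The mitochondrial share as a covariate gave 29, 12 and 32, with 1 at 2.5 µM and 1 for the mean of the doses. Without the 2 phenanthrene libraries above 10% mitochondrial counts the ends gave 23 and the trend difference 119. All 3 of these were chosen after seeing the data.

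Replicate numbers were not used as pairs in the main fit, which also holds no term for the set of numbers. Of 24 same-numbered pairs, 12 correlated above 0.1 (median 0.106), and 7 of 16 libraries correlated best with their own number. The median was 0.090 for other numbers of the same set and -0.083 between the sets, so by the median libraries resembled their own set more. The libraries numbered 2 at 2.5 and 25 µM went the other way against the lower doses. That at 2.5 µM gave -0.22 with the 0.025 µM library numbered 1 and 0.24 with that numbered 3. That at 25 µM gave -0.16 and 0.16 with the same libraries. With each other they gave 0.30. Over the phenanthrene libraries alone the replicate block gave 395 trend genes and 165 for the ends, and 81 and 32 without the block. Low counts limit the precision of some AhR genes: CYP1A1 rested on 22 to 68 counts a library at 25 µM.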
